A study of Mus musculus with 6 samples.

Results

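The myeloid C-type lectin receptors are transmembrane proteins with which macrophages, monocytes, neutrophils and dendritic cells bind sugars, glycolipids and material from dead cells. They were taken by symbol as 10 genes, Clec4a1, Clec4a2, Clec4a3, Clec4b1, Clec4d, Clec4e, Clec4n, Clec5a, Clec7a and Clec12a. Of these, 9 had a row among the 21899 genes of the expression table, and Clec7a, which encodes Dectin-1, was not analysed here. The list was chosen by fold changes between these same groups that were already known, so the receptors' levels and fold changes are given as a description, with standard errors and no p-value.

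Some of these receptors activate the cell and others restrain it. Mincle (Clec4e), MCL (Clec4d) and Dectin-2 (Clec4n) signal through the FcRγ chain (Fcer1g), the kinase SYK and the adaptor CARD9, a route known to end in cytokine and chemokine transcription, while MDL-1 (Clec5a) pairs with the adaptor DAP12 (Tyrobp). The receptors DCIR1 (Clec4a2) and MICL (Clec12a) carry an inhibitory motif in the cytoplasmic tail that recruits the phosphatase SHP-1 (Ptpn6).

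RNA was sequenced from 6 samples of tumor tissue. The tumors had been grown under the skin of male C57BL/6 mice from luciferase-carrying LLC cells, a lung carcinoma line of that strain. All 3 groups were irradiated with a laser, and none of the samples was left without irradiation. The Laser group (n = 2) was given saline, by the methods of the study, the PC-La group (n = 2) was given phycocyanin, the blue light-harvesting protein of cyanobacteria, and the SePC-La group (n = 2) was given phycocyanin enriched in selenium. The labels give light of 620 nm for 10 min and injections every 5 days, whereas the methods name another wavelength, dose and interval. The labels do not say that samples came from separate animals, so the errors and p-values measure only the spread between these samples.

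Values are FPKM, the fragments counted on a gene scaled to the length of its exons and to the total of the sample, and the depth recovered from them was 14447792 to 17649490 reads per sample. Replicates correlated at 0.946 (Laser), 0.992 (PC-La) and 0.972 (SePC-La) on the log2 scale across genes, which are not independent replicates. The second Laser sample and the first SePC-La sample stood apart from the rest. The second Laser sample held 121 FPKM over 6 skeletal muscle genes against 16.6 in the other Laser sample and at most 3.72 elsewhere, and 283 FPKM over 6 fibroblast genes against 1239. The first SePC-La sample held 117 FPKM over the fibroblast genes, against 631 in the other, and 484 FPKM over 8 macrophage genes, against 968. Fold changes without these samples are given below where leaving one out turned the sign, changed a call or moved the value most. All 8 macrophage genes (Adgre1, Csf1r, Cd68, C1qa, C1qb, C1qc, Mertk and Apoe) and all 5 general leukocyte genes (Ptprc, Itgb2, Laptm5, Coro1a and Cd53) were measured above 1 FPKM on average, so the tumors held the kind of cell these receptors mark. In whole tumors, fewer cells of a type and less RNA per cell cannot be told apart.

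All 9 receptors lie on chromosome 6, and 7 of them stand in a cluster of 9 genes over 368 kb (GENCODE M21, genome build GRCm38). From one end to the other the order was Clec4a1 (chr6:122921848-122934619), Clec4a3 (chr6:122952515-122969875), Clec4a4, Clec4b1 (chr6:123049962-123071555), Clec4a2 (chr6:123106428-123143999), Clec4b2, Clec4n (chr6:123229843-123247021), Clec4d (chr6:123262111-123275265) and Clec4e (chr6:123281789-123289870). Clec4e is on the minus strand and the other 8 are on the plus strand. The 3 FcRγ-coupled genes Clec4n, Clec4d and Clec4e are neighbours within 60.0 kb, with 15.1 kb between Clec4n and Clec4d and 6.52 kb between Clec4d and Clec4e. The 2 remaining receptors lie outside the cluster, Clec5a at chr6:40574894-40585821 on the minus strand and Clec12a at chr6:129342691-129365303 on the plus strand. The genes of the cluster that are not on the list, Clec4a4 and Clec4b2, had at most 4 and 1 reads in any sample.

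The 250 bases before the transcription start are shown for the 2 receptors with the lowest and the 2 with the highest fold change from Laser to PC-La among those that averaged 1 FPKM or more, Clec4d and Clec4e and then Clec12a and Clec4a3. They were taken from RefSeq on GRCm38.p6 and written 5′ to 3′ on the strand of the gene. Capitals mark matches on either strand to GAGGAA, the core of sites for the myeloid factor PU.1, or to TTGCNNAA, a form of the C/EBP site. The windows are chr6:123261857-123262106 (plus) for Clec4d, chr6:123289872-123290121 (minus) for Clec4e, chr6:129349994-129350243 (plus) for Clec12a and chr6:122952265-122952514 (plus) for Clec4a3. That of Clec12a lies inside the span GENCODE gives the gene.
Clec4d: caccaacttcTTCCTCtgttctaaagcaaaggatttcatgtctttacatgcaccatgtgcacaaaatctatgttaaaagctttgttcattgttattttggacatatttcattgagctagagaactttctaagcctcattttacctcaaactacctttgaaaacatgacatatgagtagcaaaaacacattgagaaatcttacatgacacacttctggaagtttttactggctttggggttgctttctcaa
Clec4e: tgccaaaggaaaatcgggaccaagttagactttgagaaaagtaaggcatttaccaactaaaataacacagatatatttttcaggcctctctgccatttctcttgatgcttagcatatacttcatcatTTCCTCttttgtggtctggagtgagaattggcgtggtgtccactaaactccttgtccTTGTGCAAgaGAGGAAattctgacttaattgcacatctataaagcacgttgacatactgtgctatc
Clec12a: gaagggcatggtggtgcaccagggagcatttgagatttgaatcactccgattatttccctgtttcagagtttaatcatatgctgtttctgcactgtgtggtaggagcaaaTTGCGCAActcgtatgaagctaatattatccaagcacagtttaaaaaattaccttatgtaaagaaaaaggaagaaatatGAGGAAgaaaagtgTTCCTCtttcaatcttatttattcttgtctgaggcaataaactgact
Clec4a3: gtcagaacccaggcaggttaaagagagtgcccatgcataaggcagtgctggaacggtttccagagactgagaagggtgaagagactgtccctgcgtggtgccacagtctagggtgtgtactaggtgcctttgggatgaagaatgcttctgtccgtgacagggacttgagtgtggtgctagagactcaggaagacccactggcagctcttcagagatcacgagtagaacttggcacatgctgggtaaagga
GAGGAA was found in the windows of 6 of the 8 receptors that had one (Clec4a1, Clec4b1, Clec4d, Clec4e, Clec5a and Clec12a) and in 23.1% of all 27025 promoters of this length. TTGCNNAA was found in Clec4e and Clec12a, and in 9.6% of all promoters. In Clec4e the C/EBP-type match began 66 bases before the start and a PU.1-type match 56 bases before it, without overlapping. In Clec12a they began 140 and 61 bases before it. The letters TGANTCA (AP-1 type), found in 6.9% of all promoters, occurred in Clec12a alone of the 8. A match is a run of letters and not a measured site. Clec4n was left out of the search.

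Clec4d showed the widest swing of the receptors. Its level was 22.3 and 36.1 FPKM in the Laser samples, 8.40 and 7.94 FPKM in the PC-La samples, and 39.0 and 40.9 FPKM in the SePC-La samples. Both PC-La samples lay below every other sample and both SePC-La samples lay above every other sample, with no overlap between any of the groups. These values rest on 190 to 1141 reads per sample. The mean was 29.2 ± 9.75 FPKM (SD, n = 2) in Laser, 8.17 ± 0.328 (SD, n = 2) in PC-La and 39.9 ± 1.32 (SD, n = 2) in SePC-La. A fold change is given here on the scale of log2(FPKM + 1), with its standard error (SE) from a fit of all 6 samples. On that scale Clec4d was lower in PC-La than in Laser by a log2 fold change of -1.68 (SE 0.22), a level 0.280 times that of Laser. It was higher in SePC-La than in PC-La by 2.16 (SE 0.22), a level 4.89 times as high, and higher in SePC-La than in Laser by 0.48 (SE 0.22). The distance between SePC-La and Laser hung on the Laser samples, since the log2 fold change was 0.14 without the first of them and 0.81 without the second.

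Clec4e, whose product Mincle senses glycolipids of mycobacteria and fungi and a nuclear protein released by dead cells, followed the same order of groups. It measured 6.01 and 5.52 FPKM under Laser, 3.34 and 2.96 under PC-La and 8.74 and 10.8 under SePC-La. As for Clec4d, the groups did not overlap, with PC-La the lowest and SePC-La the highest. The log2 fold change was -0.71 (SE 0.15) for PC-La against Laser, 0.66 (SE 0.15) for SePC-La against Laser (0.80 without the first SePC-La sample), and 1.37 (SE 0.15) for SePC-La against PC-La. In ratios of mean FPKM these were 0.546, 1.69 and 3.10 times.

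Clec4n, whose product Dectin-2 binds mannans of fungi, had the highest mean of the receptors over the 6 samples, 27.4 FPKM. It measured 25.6 and 15.96 FPKM under Laser, 18.5 and 24.1 under PC-La and 35.7 and 44.6 under SePC-La. Laser and PC-La overlapped, and both SePC-La samples lay above all the others. Its log2 fold change was 0.06 (SE 0.25) for PC-La against Laser, where it was -0.26 without the second Laser sample and -0.12 without the second PC-La sample. For SePC-La it was 0.95 (SE 0.25) against Laser (0.62 without the second Laser sample) and 0.89 (SE 0.25) against PC-La.

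Of the other receptors that activate through an adaptor, neither Clec5a nor Clec4b1 had separate groups throughout. Clec5a, which encodes MDL-1, measured 5.02 and 3.76 FPKM under Laser, 4.17 and 7.81 under PC-La and 2.52 and 5.68 under SePC-La. All 3 groups overlapped, and the replicates within PC-La and within SePC-La differed 1.88 and 2.25 times. Its log2 fold change was 0.33 (SE 0.38) for PC-La against Laser, and -0.05 without the second PC-La sample. For SePC-La against Laser it was -0.14 (SE 0.38), and turned positive without the first Laser sample (0.03) or the first SePC-La sample (0.32). For SePC-La against PC-La it was -0.48 (SE 0.38), and -0.01 without the first SePC-La sample. Clec4b1 (DCAR, a partner of the FcRγ chain) had a mean of 0.585 FPKM, below the minimum of 1 FPKM set for the fit, and was the receptor left out of it. It was counted at 4 and 3 reads under Laser, 18 and 9 under PC-La and 5 and 4 under SePC-La. Summed over each group and corrected for depth, PC-La held 4.21 times the Laser reads (exact 95% interval 1.79 to 11.4, for counting error only), and SePC-La held 1.35 times as many (0.446 to 4.25). The ratio of SePC-La to PC-La was 0.320 (0.132 to 0.700).

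**Figure D1:**
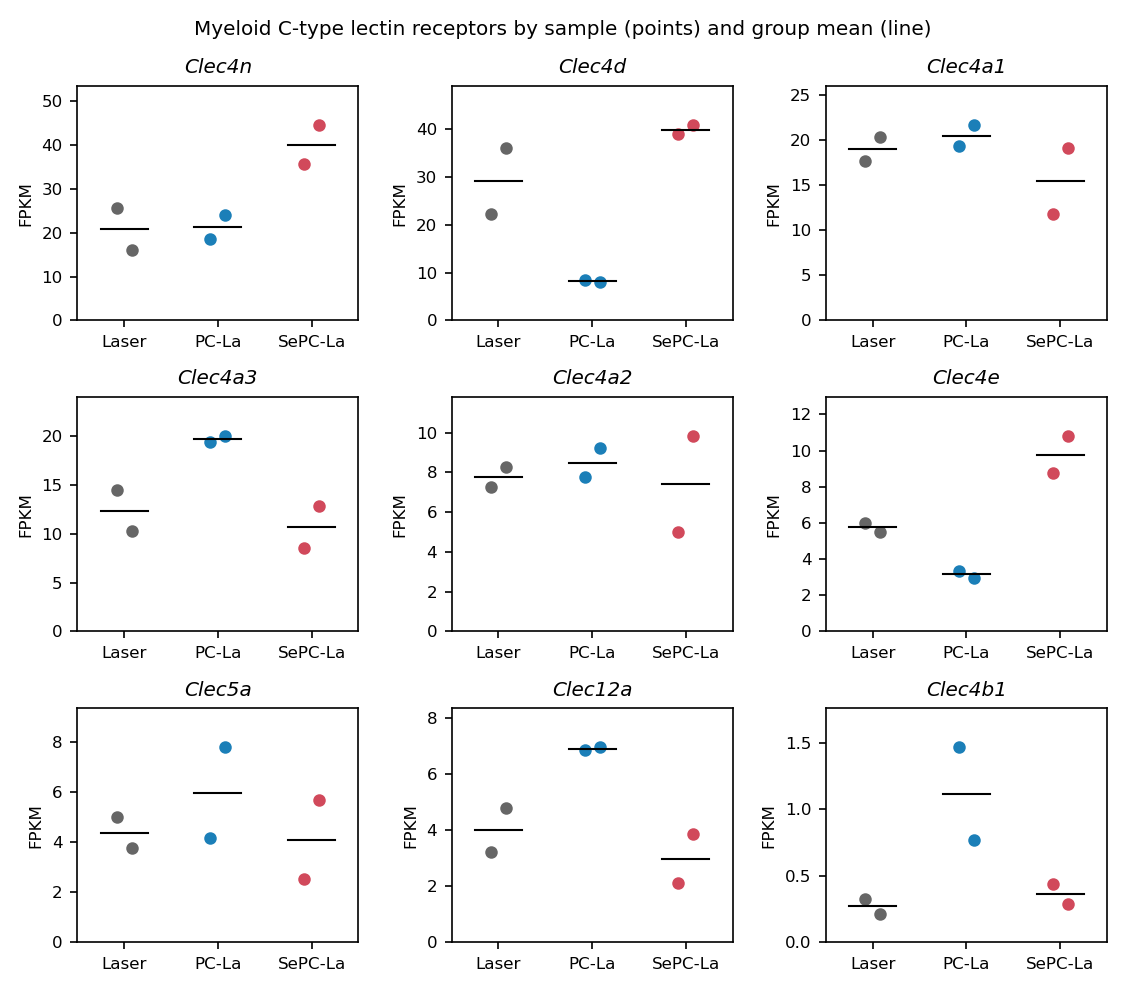
Level of each receptor in FPKM (vertical axis, from 0) in the Laser, PC-La and SePC-La groups, with a point per sample and a line at the mean of 2 samples. Clec4d and Clec4e have their lowest points in PC-La and their highest in SePC-La, Clec4a3, Clec12a and Clec4b1 have their highest in PC-La, and Clec4a1, Clec4a2 and Clec5a overlap between Laser and PC-La.

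Among the receptors with an inhibitory motif, Clec12a was higher in PC-La than in either other group. Its level, that of MICL, a receptor for uric acid crystals, was 3.23 and 4.78 FPKM under Laser, 6.84 and 6.96 under PC-La and 2.12 and 3.86 under SePC-La. Both PC-La samples lay above the other 4, which overlapped between Laser and SePC-La. The log2 fold change was 0.68 (SE 0.25) for PC-La against Laser, -0.35 (SE 0.25) for SePC-La against Laser and -1.02 (SE 0.25) for SePC-La against PC-La. Without the first SePC-La sample, the last 2 of these were -0.02 and -0.70, and without the second the last was -1.34. PC-La against Laser gave 0.90 without the second Laser sample. Clec4a2, which encodes DCIR1, measured 7.24 and 8.25 FPKM under Laser, 7.79 and 9.20 under PC-La and 4.99 and 9.83 under SePC-La. Its groups all overlapped, and the SePC-La replicates differed 1.97 times. Its log2 fold change for SePC-La was -0.12 (SE 0.28) against Laser and -0.23 (SE 0.28) against PC-La, and both turned positive (0.31 and 0.19) without the first SePC-La sample.

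Clec4a3 and Clec4a1, the DCIR relatives at the other end of the cluster, did not share the order of groups seen in Clec4d and Clec4e. Clec4a3 measured 14.4 and 10.3 FPKM under Laser, 19.4 and 20.0 under PC-La and 8.55 and 12.9 under SePC-La. The PC-La samples lay above all the others, as for Clec12a. The log2 fold change was 0.65 (SE 0.23) for PC-La against Laser, or 0.42 without the second Laser sample. It was -0.85 (SE 0.23) for SePC-La against PC-La, or -0.58 without the first SePC-La sample. For SePC-La against Laser it was -0.20 (SE 0.23), and its sign turned without the first Laser sample (0.03) or the first SePC-La sample (0.07). In Clec4a1 the Laser and PC-La samples overlapped, and the first SePC-La sample was the lowest. Its samples measured 17.6 and 20.3 FPKM under Laser, 19.3 and 21.7 under PC-La and 11.8 and 19.1 under SePC-La. Its log2 fold change was 0.11 (SE 0.22) for PC-La against Laser and -0.31 (SE 0.22) for SePC-La against Laser, the latter 0.01 without the first SePC-La sample. For SePC-La against PC-La it was -0.42 (SE 0.22), and -0.10 without that sample. Related receptors of the cluster share some sequence, which could split reads between them. Of all 50-base stretches in their transcripts, 6.83% in Clec4a2 and 8.68% in Clec4b1 also occurred in another gene, which makes these values uncertain. In each of the other receptors the share was at most 0.69%.

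**Figure D2:**
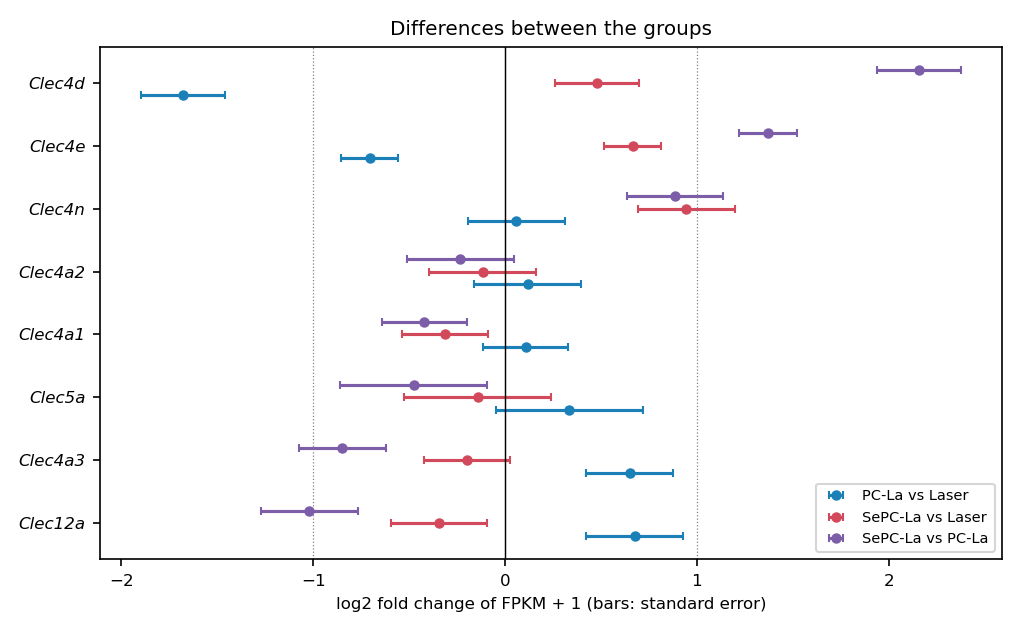
Log2 fold change of FPKM + 1 (horizontal axis) of the 8 receptors in the fit for PC-La against Laser, SePC-La against Laser and SePC-La against PC-La, with bars for the standard error and dotted lines at 1 and -1. Clec4d at -1.68 is the one point below -1 for PC-La against Laser, and Clec4d at 2.16 and Clec4e at 1.37 lie above 1 for SePC-La against PC-La.

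FPKM is a scale per length, so the receptors can also be set in order. In Laser the means were 29.2 FPKM for Clec4d, 20.8 for Clec4n, 19.0 for Clec4a1, 12.4 for Clec4a3, 7.74 for Clec4a2, 5.77 for Clec4e, 4.39 for Clec5a and 4.01 for Clec12a. Clec4d and Clec4n overlapped there, as did Clec4n and Clec4a1, and Clec5a and Clec12a. In PC-La, Clec4d with 8.17 FPKM came after Clec4n (21.3), Clec4a1 (20.5), Clec4a3 (19.7) and Clec4a2 (8.49), and was followed by Clec12a (6.90), Clec5a (5.99) and Clec4e (3.15). There Clec4n, Clec4a1 and Clec4a3 overlapped from each to the next, and so did Clec4a2 and Clec4d, and Clec12a and Clec5a. In SePC-La, Clec4n (40.1) and Clec4d (39.9) overlapped each other and stood above Clec4a1 (15.4), Clec4a3 (10.7), Clec4e (9.77), Clec4a2 (7.41), Clec5a (4.10) and Clec12a (2.99). From Clec4a1 down, each overlapped its neighbour. Clec4e thus held the last place in PC-La and Clec12a the last in the other groups, Clec4b1 left aside.

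The first comparison, PC-La against Laser, asks what phycocyanin adds to light. The FcRγ-coupled Clec4d and Clec4e were lower with phycocyanin, Clec4a3 and Clec12a were higher, and the samples of the 4 others overlapped. A gene was counted as differing when its absolute log2 fold change was over 1 and its unadjusted p in the limma fit was under 0.05. Clec4d was the 1 receptor of the 8 in the fit that met this and was lower, against 1.29% of the 10853 genes tested (0.866% higher and 0.424% lower). Clec4d met it under every alternative, with a log2 fold change of -2.02 without the first Laser sample and -1.34 without the second. The groups did not overlap for 2 receptors that were higher and 2 that were lower, against 42% of all genes (20.4% higher and 21.6% lower). The median log2 fold change was 0.11 over the 8 receptors and -0.001 over all genes. No gene of the 10853 had an adjusted p under 0.05 in limma with Benjamini-Hochberg adjustment, the smallest being 0.406, and 627 had an unadjusted p under 0.05.

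The second comparison, SePC-La against Laser, asks the same of the selenium-enriched protein. The 3 neighbours Clec4n, Clec4e and Clec4d were higher in both SePC-La samples than in both Laser samples, and the other 5 receptors overlapped. None of the 8 receptors met the criterion, against 0.682% of genes (0.544% higher and 0.138% lower). Clec4n came closest with 0.95, and met it with median-ratio scaling (1.02), without the first Laser sample (1.27) and without the first SePC-La sample (1.10). The 3 receptors with separate groups were all higher, against 40.6% of genes with separate groups (15% higher and 25.6% lower). The median log2 fold change was -0.13 over the receptors and -0.07 over all genes. No gene had an adjusted p under 0.05 in limma, the smallest being 0.376, and 1318 had an unadjusted p under 0.05.

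The third comparison, SePC-La against PC-La, sets the proteins with and without added selenium side by side. It uses the same samples as the other 2 and is not independent of them. Clec4d and Clec4e were higher and Clec12a was lower past the criterion, 3 of 8 receptors, against 2.98% of genes (1.18% higher and 1.8% lower). The groups did not overlap for 3 receptors that were higher (Clec4d, Clec4e and Clec4n) and 3 that were lower (Clec4a3, Clec4a1 and Clec12a), against 65.5% of genes (26% higher and 39.5% lower). Clec12a at -1.02 was just past the limit and fell short of it with median-ratio scaling (-0.94) and without the first SePC-La sample. Clec4n met the criterion without the second PC-La sample (1.07) or the first SePC-La sample (1.04), and Clec4a3 met it without the second SePC-La sample (-1.12). The median log2 fold change was -0.33 over the receptors and -0.07 over all genes. Of all genes, 128 were higher and 195 lower past the criterion, a split that became 166 and 148 with median-ratio scaling. No adjusted p was under 0.05 in limma, the smallest being 0.0649, and 2637 genes had an unadjusted p under 0.05.

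**Figure D3:**
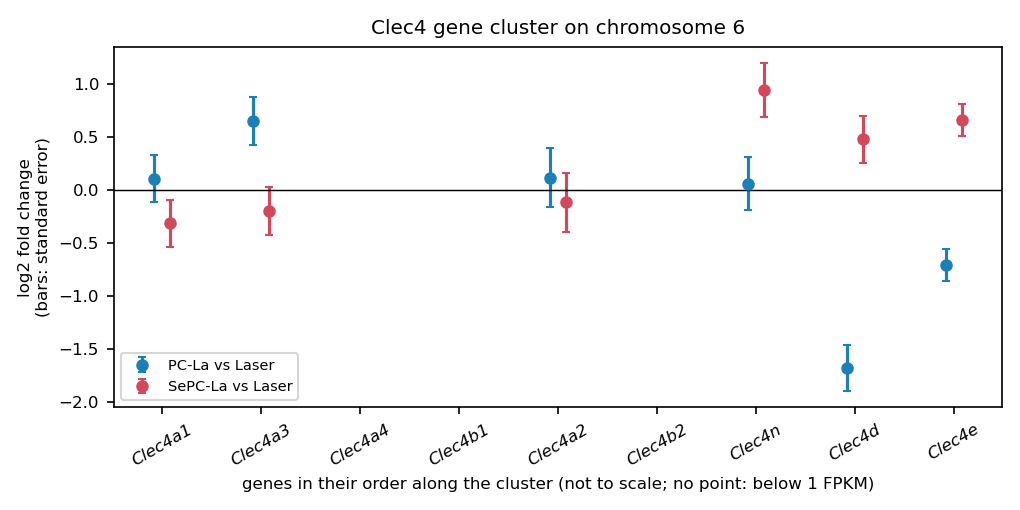
Log2 fold change of FPKM + 1 (vertical axis) against Laser for the genes of the Clec4 cluster in their order along chromosome 6 (horizontal axis, not to scale), with bars for the standard error. Genes below 1 FPKM have no point. The points for PC-La and SePC-La lie on opposite sides of 0 at 5 of the 6 genes plotted, all but Clec4n: PC-La is the lower one at Clec4d (-1.68 and 0.48) and Clec4e (-0.71 and 0.66) and the higher one at Clec4a1, Clec4a3 and Clec4a2.

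Along the cluster, the receptors at the Clec4a1 end and those at the Clec4e end thus differed in which group had the highest mean. Outside the cluster, Clec12a and Clec5a also had their highest mean in PC-La, so that order was not particular to the Clec4a1 end. For Clec4n, Clec4d and Clec4e it was SePC-La. For Clec4a1, Clec4a3, Clec4b1 and Clec4a2 it was PC-La by the mean, although Clec4a2 overlapped throughout and Clec4a1 overlapped between Laser and PC-La. In the plot of fold changes by gene order, the SePC-La points change sign between Clec4a2 and Clec4n, and the PC-La points between Clec4n and Clec4d. The SePC-La signs at the Clec4a1 end rested on 1 sample. Without the first SePC-La sample the log2 fold changes against Laser were 0.01 for Clec4a1, 0.07 for Clec4a3 and 0.31 for Clec4a2. Against PC-La they were then -0.10 for Clec4a1, -0.58 for Clec4a3 and 0.19 for Clec4a2, so that Clec4a2 was highest in SePC-La.

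The levels were also set against the leukocyte content of each sample, as the percent of the summed FPKM of the 5 general leukocyte genes. That sum was 190 and 202 FPKM under Laser, 208 and 243 under PC-La and 201 and 236 under SePC-La, so it varied less than the receptors did. Its genes did not move together. Ptprc, Laptm5 and Coro1a were highest in both PC-La samples (Coro1a at 52.35 and 58.0 FPKM, against at most 45.7 elsewhere). Itgb2 was lowest in PC-La by the mean (63.8 FPKM, against 80.9 in Laser and 79.4 in SePC-La), and Cd53 was highest in SePC-La. On this scale Clec4d was 11.8% and 17.9% under Laser, 4.05% and 3.27% under PC-La and 19.4% and 17.3% under SePC-La. The PC-La samples again lay below the others, while Laser and SePC-La now overlapped. Clec4e was 3.17% and 2.74% under Laser, 1.61% and 1.22% under PC-La and 4.34% and 4.57% under SePC-La, with no overlap. Clec4n was 13.5% and 7.92% under Laser, 8.91% and 9.95% under PC-La and 17.7% and 18.9% under SePC-La, which lay above the rest. Clec12a was 1.71% and 2.37% under Laser, 3.30% and 2.87% under PC-La and 1.05% and 1.64% under SePC-La. On this scale both it and Clec4a3, at 9.37% and 8.24% in PC-La against at most 7.61% elsewhere, kept their highest values in PC-La. Against single genes, Laser and PC-La could overlap. Clec12a was 12.67% and 27.36% of Csf1r under Laser, and 23.48% and 20.96% under PC-La. Clec4a3 was 21.8% and 13.66% of Tyrobp under Laser, and 21.62% and 20.72% under PC-La. Clec12a as a percent of Tyrobp stayed highest in PC-La, at 7.61% and 7.217% against at most 6.339% elsewhere.

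**Figure D4:**
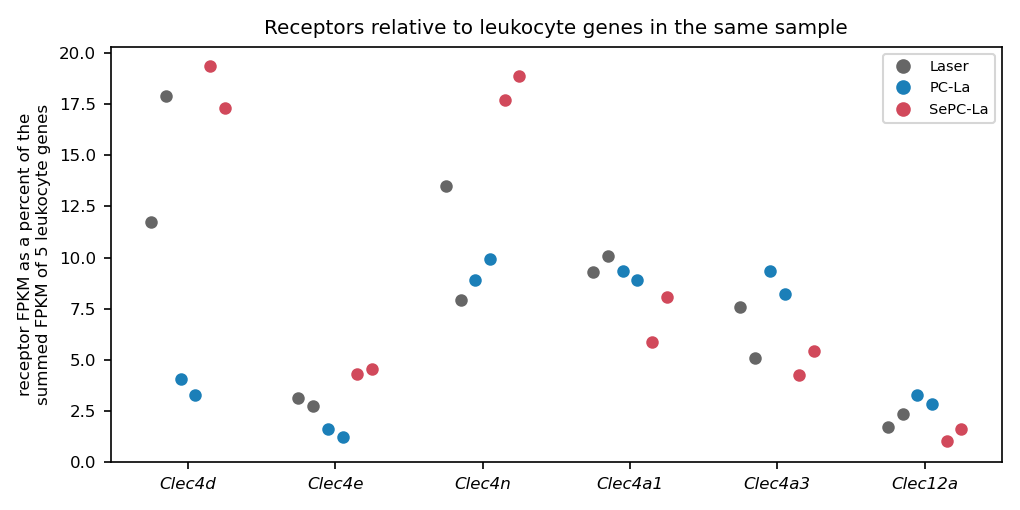
FPKM of 6 receptors as a percent of the summed FPKM of Ptprc, Itgb2, Laptm5, Coro1a and Cd53 in the same sample (vertical axis, from 0), with a point per sample coloured by group. PC-La lies lowest for Clec4d (4.05% and 3.27%) and Clec4e (1.61% and 1.22%), and highest for Clec4a3 and Clec12a.

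Markers of several cell types moved with these groups. Over 10 neutrophil genes the summed level was 165 and 42.5 FPKM under Laser, 159 and 93.3 under PC-La and 345 and 469 under SePC-La, where Clec4d, Clec4e and Clec4n were also highest. Of the 7 neutrophil genes in the fit, S100a8, S100a9 and Retnlg rose in SePC-La against Laser, Mmp8 fell in PC-La against Laser, and Mmp8, S100a8 and Retnlg were higher in SePC-La than in PC-La past the criterion, with adjusted p of at least 0.126 in limma. The defining neutrophil genes Ly6g (0 to 0.912 FPKM), Ngp (0 to 1.73) and Camp (0 to 0.453) averaged below 1 FPKM, and each was highest in the second SePC-La sample. The neutrophil genes did not move as one in the second Laser sample. It had the lowest sum, with S100a9 at 14.1 FPKM against 104 in the other Laser sample, but the highest Mmp8 of all samples, 7.85 FPKM, and Clec4d at 36.1 FPKM.

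The 8 macrophage genes summed to 1035 and 962 FPKM under Laser, 1417 and 1389 under PC-La and 484 and 968 under SePC-La, and the 6 fibroblast genes to 1239 and 283, 1714 and 1562, and 117 and 631 in the same order. Both sums were thus highest in PC-La, as were Clec4a3 and Clec12a. Of the fibroblast genes, Col1a1 and Col1a2 went another way and were highest in SePC-La by the mean. Col1a1 averaged 13.6 FPKM there, against 12.8 in PC-La and 9.10 in Laser, and Col1a2 averaged 5.71, against 2.40 and 2.45. Their SePC-La samples differed widely (3.99 and 23.2 for Col1a1, 1.33 and 10.1 for Col1a2). The other fibroblast genes were highest in PC-La by the mean. Not every macrophage gene followed its sum. Cd68 was lowest in PC-La by the mean (56.5 FPKM, against 68.0 in Laser and 70.7 in SePC-La). Mertk averaged 9.55 FPKM in PC-La and 9.68 in Laser. The other macrophage genes were highest in PC-La by the mean. Of the macrophage genes, Apoe, C1qa and C1qc were lower in SePC-La than in PC-La past the criterion, with adjusted p of at least 0.146 in limma, and Apoe alone was with median-ratio scaling. Over 6 monocyte genes the sums were 88.4 and 109 FPKM in PC-La, 82.3 and 110 in SePC-La, and 90.9 and 300 in Laser, where Chil3 alone gave 242 in the second sample. Without Chil3 they were 80.6 and 95.5, 56 and 73.2, and 76.6 and 58.4, so that PC-La was highest. Over 6 dendritic cell genes the sums were 15.4 and 22.4, 8.96 and 7.57, and 10.9 and 3.86 in that order of groups. Most of each sum came from Itgax (12.7 and 17.8, 7.31 and 5.20, and 7.46 and 2.61), an integrin gene that macrophages also express. Itgax rose in PC-La against Laser and was lower in SePC-La than in PC-La past the criterion, with adjusted p of 0.735 and 0.184 in limma. Batf3 was also highest in both PC-La samples (1.12 and 2.09 FPKM, against at most 1.04 elsewhere). The rest of the list averaged below 1 FPKM. Among these, Zbtb46 (0.286 and 0.597 in PC-La, 0.553 and 0.253 in Laser) and Cd209a (0.243 and 0.633, 1.045 and 0) overlapped between PC-La and Laser.

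The 6 platelet and megakaryocyte genes summed to 76.0 and 90.8 FPKM under Laser, 20.5 and 18.5 under PC-La and 92.1 and 146 under SePC-La, nearly all of it from Pf4 and Ppbp. These were the 2 genes of the list in the fit. Both fell in PC-La against Laser past the criterion, with log2 fold changes of -2.02 and -2.10 (adjusted p in limma 0.406 and 0.430). Both were higher in SePC-La than in PC-La, by 2.44 and 3.09 (adjusted p in limma 0.0763 and 0.0868). The other members did not share this order: Itga2b ranged from 0.546 to 1.40 FPKM and was lowest in SePC-La by the mean, Treml1 was at most 0.411 FPKM and Gp9 at most 0.322, and Gp1bb was at 0 in every sample. Sums over 5 T cell genes were 2.53 to 8.37 FPKM, with overlapping groups. Sums over 5 endothelial genes were 18.3 to 21.7 FPKM under Laser, 22.0 to 29.8 under PC-La and 24.4 to 32.4 under SePC-La. The part of any of these cell types in the receptors' levels was not tested.

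**Figure D5:**
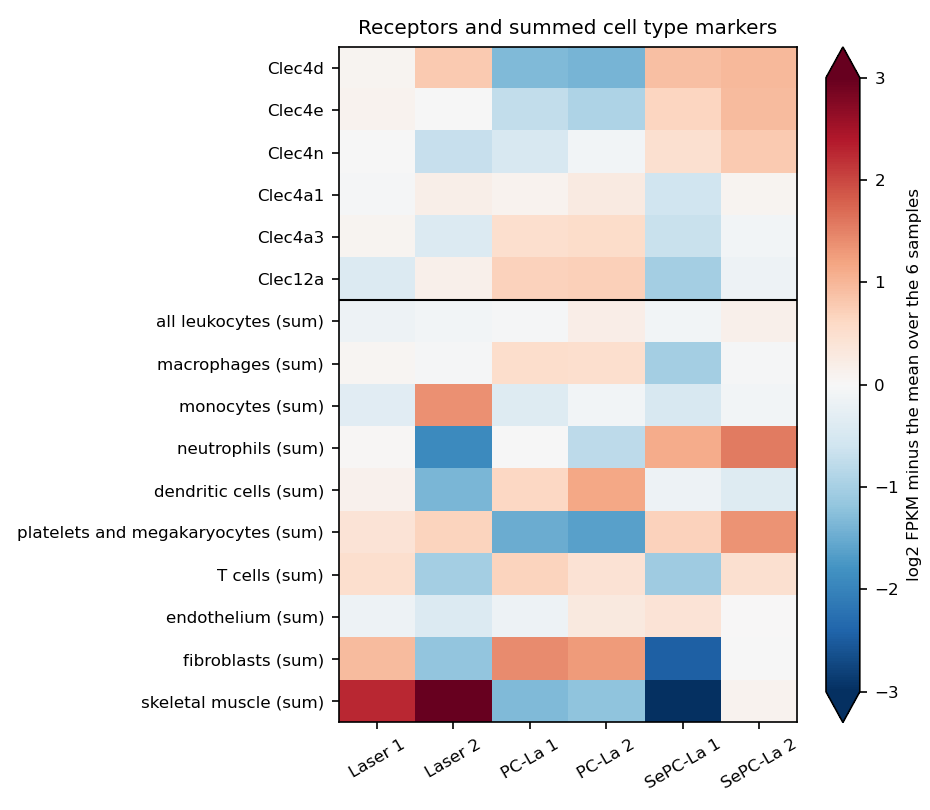
Log2 FPKM of 6 receptors and of the summed marker genes of 10 cell types (rows) in each of the 6 samples (columns), as the difference from the mean of that row over the 6 samples, with colours that end at 3 and -3. In PC-La, Clec4d (-1.32 and -1.40) and the platelet sum (-1.48 and -1.63) are both low, and Clec4a3 and Clec12a are high with the macrophage sum (0.52 and 0.50) and the fibroblast sum (1.42 and 1.29).

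The partners through which these receptors signal were followed in a list of 12 genes, among them Fcer1g, Tyrobp, Syk, Card9 and Ptpn6. All 12 were in the fit. None met the criterion in SePC-La against Laser or in SePC-La against PC-La, and the median log2 fold changes were 0.39 (PC-La against Laser), 0.19 (SePC-La against Laser) and -0.22 (SePC-La against PC-La). Fcer1g, the chain shared by Clec4d, Clec4e and Clec4n, was abundant at 104 and 73.1 FPKM under Laser, 110 and 119 under PC-La and 81.3 and 122 under SePC-La. It was thus not low in PC-La, where Clec4d and Clec4e were. Syk measured 4.82 and 3.32 FPKM under Laser, 3.79 and 3.997 under PC-La and 4.78 and 5.16 under SePC-La. Card9 measured 4.38 and 3.09 FPKM under Laser, 5.41 and 6.64 under PC-La and 2.81 and 4.17 under SePC-La, so that Card9 was highest in PC-La.

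Of 10 inflammatory genes that SYK and CARD9 signalling is known to induce, 8 were in the fit. None met the criterion in PC-La against Laser, 1 rose in SePC-La against Laser (Cxcl1) and 2 were higher in SePC-La than in PC-La (Cxcl1 and Cxcl2, which encode chemokines that attract neutrophils). The median log2 fold changes were 0.18, 0.81 and 0.70 in the same order. Cxcl1 measured 55.6 and 17.4 FPKM under Laser, 35.0 and 29.1 under PC-La and 80.4 and 131 under SePC-La. Its log2 fold change was 1.68 (SE 0.55) against Laser, with an adjusted p of 0.385 in limma, and 1.66 (SE 0.55) against PC-La, with 0.169. Cxcl2 was at 31.6 and 6.74 FPKM under Laser, 11.5 and 7.27 under PC-La and 48.7 and 51.0 under SePC-La, with a log2 fold change of 2.32 (SE 0.68) against PC-La and an adjusted p of 0.151 in limma. The calls against Laser depended on the samples. In PC-La against Laser, Il1b was called higher without the first Laser sample and Cxcl2 lower without the second, and the median became 0.81 or -0.14. Without the first Laser sample 4 genes rose in SePC-La (Cxcl1, Cxcl2, Il1b and Ptgs2), and none did without the second Laser sample, the second SePC-La sample or either PC-La sample. Against PC-La, neither gene was called without either PC-La sample or without the second SePC-La sample, and Cxcl1 alone was called without the first.

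Of 16 other C-type lectin and lectin-like receptors, 8 were in the fit and Clec4g was at 0 in every sample. None met the criterion against Laser in either group, and 1, Clec3b, which encodes the secreted protein tetranectin, was lower in SePC-La than in PC-La. It measured 1.22 and 0.3998 FPKM under Laser, 2.52 and 2.76 under PC-La and 0 and 1.44 under SePC-La, with a log2 fold change of -1.22 (SE 0.45) and an adjusted p of 0.182 in limma. The median log2 fold changes of these 8 genes were 0.10, -0.30 and -0.44. The call was lost without either PC-La sample and without the first SePC-La sample. Against Laser, Clec3b had a log2 fold change of 1.05 (SE 0.45) in PC-La, with an adjusted p of 0.753 in limma. It met the criterion there in a fit of the 4 samples compared and without either SePC-La sample. Without the first Laser sample, 2 genes rose in PC-La against Laser (Clec2d and Clec3b) and 1 fell (Clec10a).

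For each receptor the gene with the most similar pattern was sought among 10852 others, by the root mean square difference of centred log2(FPKM + 1) over the 6 samples. For Clec4e it was Tarm1, at a distance of 0.067, with 3.51 and 3.10 FPKM under Laser, 1.77 and 1.84 under PC-La and 5.70 and 6.77 under SePC-La. For Clec4d it was Pf4, which encodes platelet factor 4, at a distance of 0.250. Pf4 measured 58.7 and 82.9 FPKM under Laser, 17.4 and 15.6 under PC-La and 72.4 and 121 under SePC-La, in the same order of groups as Clec4d. For Clec4n it was the chemokine gene Ccl2 (0.145), for Clec12a the complement gene C1qb (0.132), for Clec4a3 Oat (0.062), for Clec4a1 Fads2 (0.044), for Clec4a2 Mcee (0.063) and for Clec5a Sox18 (0.121). Within the list, Clec4a1 and Clec4a2 were each other's nearest (0.110), as were Clec4e and Clec4n (0.382) and Clec4a3 and Clec12a (0.272), and Clec4d was nearest to Clec4e (0.482). Genes outside the list were often nearer than these, 47 of them for Clec4a1, 12 for Clec4a2, 1414 for Clec4a3, 118 for Clec12a, 359 for Clec4e, 602 for Clec4n and 29 for Clec4d. A distance of this kind is smaller for a gene that varies little, and the points share the same 6 libraries.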

How the data were processed

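Total RNA of mouse tumors was sequenced by the authors on an Illumina instrument. The authors deposited 1 table with a value per gene and sample, and every column was used. Its unit was settled from the values as FPKM: with the merged exon lengths of GENCODE M21 (GRCm38), all 6 values came out as whole reads, within 0.02 of a read, for 97.8% of 16785 expressed genes. The submitters' processing notes name HISAT2 2.0.5, HTSeq 0.9.1, DESeq 1.30.0 and the build mm9, whereas the values match exon lengths on GRCm38. The table holds no coordinates. Neither counting by strand nor the treatment of shared reads is stated.

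Groups were taken from the labels (3 groups of 2). The receptors and the gene lists were chosen with earlier results of these data known. Every receptor was named, with the list genes that met the criterion and at most 3 others of a list, except that some single-gene results are not reported here; lists were not tested as sets. The limma package (version 3.58.1, R 4.3.3) was fitted to log2(FPKM + 1), from values as deposited, for 10853 genes that averaged 1 FPKM or more. The fit had a mean per group, a trend and robust moderation (6.4 degrees of freedom, 3.4 of them from the prior), with Benjamini-Hochberg adjustment over all genes. The criterion (absolute log2 fold change over 1, unadjusted p under 0.05) follows the study's methods. The pseudocount of 1 understates changes of low genes. Nearest genes and ratios were chosen after the values were seen. The scripts were tested on simulated data.

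Alternatives were a pseudocount of 0.1, no filter, a filter at 5 FPKM, median-ratio scaling, no trend and no robust estimation, only the 4 samples compared, the replicate block, limma voom on the recovered reads, and each sample left out in turn. Plots were drawn with matplotlib 3.10.9 in Python 3.11.15.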

Additional observations from a re-analysis of the deposited data

How the results depend on the processing

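Of 330 values of the receptors' log2 fold changes under the alternatives, 320 kept the reported direction. The 10 that did not belonged to 5 receptors (Clec4a1, Clec4a2, Clec4a3, Clec4n and Clec5a), whose reported fold changes had not met the criterion, and all 10 came from leaving out a sample. In PC-La against Laser 1 receptor (Clec4d) met the criterion under every alternative. In SePC-La against Laser the count was 1 in place of 0 with median-ratio scaling, and 0 to 1 with a sample left out. In SePC-La against PC-La it was 2 to 4 in place of 3.

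The number of genes that met the criterion moved more. For PC-La against Laser it was 68 with a minimum mean of 5 FPKM and 221 with voom, against 140, and 71 to 664 with a sample left out (664 without the first Laser sample, 81 without the second and 71 without the second PC-La sample). For SePC-La against Laser it was 129 at a pseudocount of 0.1, 46 at a 5 FPKM minimum and 134 with voom, against 74, and 60 to 253 with a sample left out (253 without the first Laser sample, 209 without the second and 153 without the second SePC-La sample). For SePC-La against PC-La it was 488 at a pseudocount of 0.1 and 186 at a 5 FPKM minimum, against 323, and 169 to 584 with a sample left out (169 without the first SePC-La sample, 584 without the second and 213 without the first PC-La sample). A higher minimum tests fewer genes; the cause of the other moves was not tested. A group left with 1 sample is assumed to vary like the others.

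With the replicate number as a replicate block, 133, 81 and 285 genes and 1, 0 and 3 receptors met the criterion in the 3 comparisons, in the order above. Samples with the same number did not deviate together (correlations of 0.09 for Laser and PC-La, -0.43 for Laser and SePC-La and -0.18 for PC-La and SePC-La). These values gave no sign that the numbers pair the samples, but they cannot show that the samples were unpaired.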

Other observations

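Ratios between receptors in the same sample, chosen after their values were seen, do not depend on how the samples were scaled. Clec4d, as a percent of Clec4a1 at the other end of the gene cluster, was 126% and 178% under Laser, 43.4% and 36.7% under PC-La and 330% and 214% under SePC-La. The 3 groups did not overlap, with PC-La lowest and SePC-La highest. Clec4e as a percent of Clec4a1 was 34.1% and 27.2% under Laser, 17.3% and 13.7% under PC-La and 74.0% and 56.6% under SePC-La, again with no overlap. Clec4n as a percent of Clec4a1 was 145% and 78.7% under Laser, 95.5% and 112% under PC-La and 302% and 234% under SePC-La, so that Laser and PC-La overlapped below SePC-La. Clec12a as a percent of Clec4a3 was 22.4% and 46.4% under Laser, 35.2% and 34.8% under PC-La and 24.7% and 30.1% under SePC-La, so that Laser overlapped both other groups.

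Set against the macrophage growth factor receptor gene Csf1r, Clec4d was 87.3% and 207% under Laser, 28.8% and 23.9% under PC-La and 303% and 168% under SePC-La. Clec4a3 was within 52.7% to 66.7% of Csf1r in all 6 samples. The Laser samples (56.6% and 58.9%) lay below the PC-La samples (66.7% and 60.2%), and the SePC-La samples (66.5% and 52.7%) overlapped both.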
